A study of Homo sapiens with 6 samples.

Results

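The miR-17~92 cluster is a group of miRNAs cut from a single primary transcript, MIR17HG. Its members were taken by name from a fixed list of 10 mature strands of the 6 hairpins MIR17, MIR18A, MIR19A, MIR20A, MIR19B1 and MIR92A1, out of 2588 mature miRNAs in the table. They are hsa-miR-17-5p, hsa-miR-17-3p, hsa-miR-18a-5p, hsa-miR-18a-3p, hsa-miR-19a-3p, hsa-miR-19b-3p, hsa-miR-20a-5p, hsa-miR-20a-3p, hsa-miR-92a-3p and hsa-miR-92a-1-5p, written below without the species prefix. The other two strands, miR-19a-5p and miR-19b-1-5p, are not in the list and are described apart. Small RNA was sequenced from A549, an established human line of lung adenocarcinoma origin, in 3 libraries of parental cells (Ctrl) and 3 libraries of cells lacking the *MIR21* locus (*MIR21*-KO). Cells of all 6 libraries were harvested 48 h after seeding. The knockout was made with Cas9 and a pair of guide RNAs expressed from transfected plasmids, followed by sorting of single fluorescent cells, so *MIR21*-KO cells descend from single-cell clones whereas Ctrl cells are the parental line. The study's methods state in general that experiments were done as biological triplicates or more, but neither they nor the labels say, for these 6 libraries, how many clones or separate cultures they represent, so p-values measure the spread between these libraries, which may be partly technical.

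MIR17HG is known as a MYC- and E2F-driven oncogenic transcript that is often abundant in lung tumors, and its miRNAs are known to repress the pro-apoptotic BCL2L11 and the cell cycle inhibitor CDKN1A. Drosha excises the hairpins in the nucleus, Dicer cuts them in the cytoplasm, and usually 1 strand of each duplex, the guide, is retained by an Argonaute protein while the other, the passenger, is degraded. Bases 2 to 8 of the guide, the seed, pair with the target mRNA and define the family to which a miRNA belongs. The cluster has paralogs in the miR-106a cluster on the X chromosome and in miR-106b~25, which lies within an intron of MCM7.

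The hairpins lie on the plus strand of chromosome 13, from 91350605 (start of MIR17) to 91351391 (end of MIR92A1) on GRCh38, a span of 787 nt with gaps of 35 to 92 nt between neighbours. MIR17HG itself runs from 91347820 to 91354579 in GENCODE 29. Each of the 6 hairpins falls within an exon of 2 of its 3 annotated transcripts and within an intron of the other. The guide strands are shown because they sort the cluster into 4 seed families, with the seed in capitals and the sequences taken from RefSeq (GRCh38.p14), 5′ to 3′.

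miR-17-5p: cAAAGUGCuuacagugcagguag
miR-20a-5p: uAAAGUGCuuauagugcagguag
miR-18a-5p: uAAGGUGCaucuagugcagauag
miR-19a-3p: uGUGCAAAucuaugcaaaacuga
miR-19b-3p: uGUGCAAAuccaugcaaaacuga
miR-92a-3p: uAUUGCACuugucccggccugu

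miR-17-5p and miR-20a-5p share the seed AAAGUGC and differ by the substitutions C1U and C12U, counted from 1 at the 5′ end with the base of miR-17-5p first. miR-18a-5p carries AAGGUGC, which differs from that seed by A4G. The sequences of miR-19a-3p and miR-19b-3p (GUGCAAA) differ only by U11C. miR-92a-3p has the unrelated seed AUUGCAC. Mature miR-19b-3p and miR-92a-3p are also encoded on the minus strand of the X chromosome (134169683 to 134169705 for the MIR19B2 copy and 134169544 to 134169565 for the MIR92A2 copy), so reads of these guides cannot be assigned to a locus by sequence.

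Paralogs and relatives that share a seed with a guide and are set beside the cluster below are shown in the same way.

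miR-106a-5p: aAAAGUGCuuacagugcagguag
miR-93-5p: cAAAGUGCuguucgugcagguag
miR-25-3p: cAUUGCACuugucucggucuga

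miR-106a-5p differs from miR-17-5p only by C1A, and miR-93-5p by U10G, A11U, C12U and A13C. miR-25-3p differs from miR-92a-3p by U1C, C14U, C18U and U22A.

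The libraries held 6180032 to 9768152 miRNA reads in Ctrl against 5577287 to 8671618 in *MIR21*-KO. miR-21-5p, the product of the targeted locus, made up 65.5 to 69.4% of the reads in Ctrl against 0.0156 to 0.0254% in *MIR21*-KO. The deposited values are reads per 1000000 of the library scaled by TMM, a factor that offsets the room a few abundant RNAs take up; here it was 0.545 to 0.725 in Ctrl against 1.38 to 1.91 in *MIR21*-KO. Of 5 epithelial marker miRNAs, the miR-200 family, 4 had a value of at least 1 in all 6 libraries, with sums of 1374 to 2171 in Ctrl against 879 to 1269 in *MIR21*-KO. Ctrl replicates 1 and 2 and *MIR21*-KO replicate 3 separated from the other 3 libraries (Ctrl replicate 3, *MIR21*-KO replicates 1 and 2) on the first principal component of 586 miRNAs outside the cluster, its paralogs and its seed relatives, which held 63.8% of the variance. This division crosses the conditions, and neither the labels nor the methods name it. The labels place the making and sequencing of all 6 libraries with the same provider. The methods give alternative routes for the small RNA libraries and sequencing of the whole study, without assigning them to libraries. The groups on each side of the division are therefore called library sets below, and results are given with and without them.

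The deposited values of the members spanned more than 3 orders of magnitude although the members share a transcript. How evenly the libraries captured different sequences was not tested. The ratio of miR-92a-3p to miR-20a-5p alone ran from 1.48 to 13.4 over the libraries. miR-92a-3p was the most abundant guide with a mean of 2920 over the 6 libraries, followed by miR-20a-5p (879), miR-17-5p (481), miR-19b-3p (121), miR-19a-3p (69.3) and miR-18a-5p (17.3). Each of these guides was higher than the next in 6 of 6 libraries. miR-18a-5p exceeded the most abundant passenger strand, miR-92a-1-5p, in 3 of 6 libraries. Among the passenger strands, miR-92a-1-5p (8.10), miR-18a-3p (5.69) and miR-17-3p (4.82) were not ordered beyond their spread: the first exceeded the second in 3 of 6 libraries and the second exceeded the third in 4 of 6. miR-20a-3p was the lowest at 1.10, below miR-17-3p in 6 of 6. These values did not follow the position of a hairpin. The 3 highest guides were those of the hairpins at both ends of the cluster and of MIR20A between them. Reads from the X chromosome may count toward miR-92a-3p and miR-19b-3p.

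**Figure D1:**
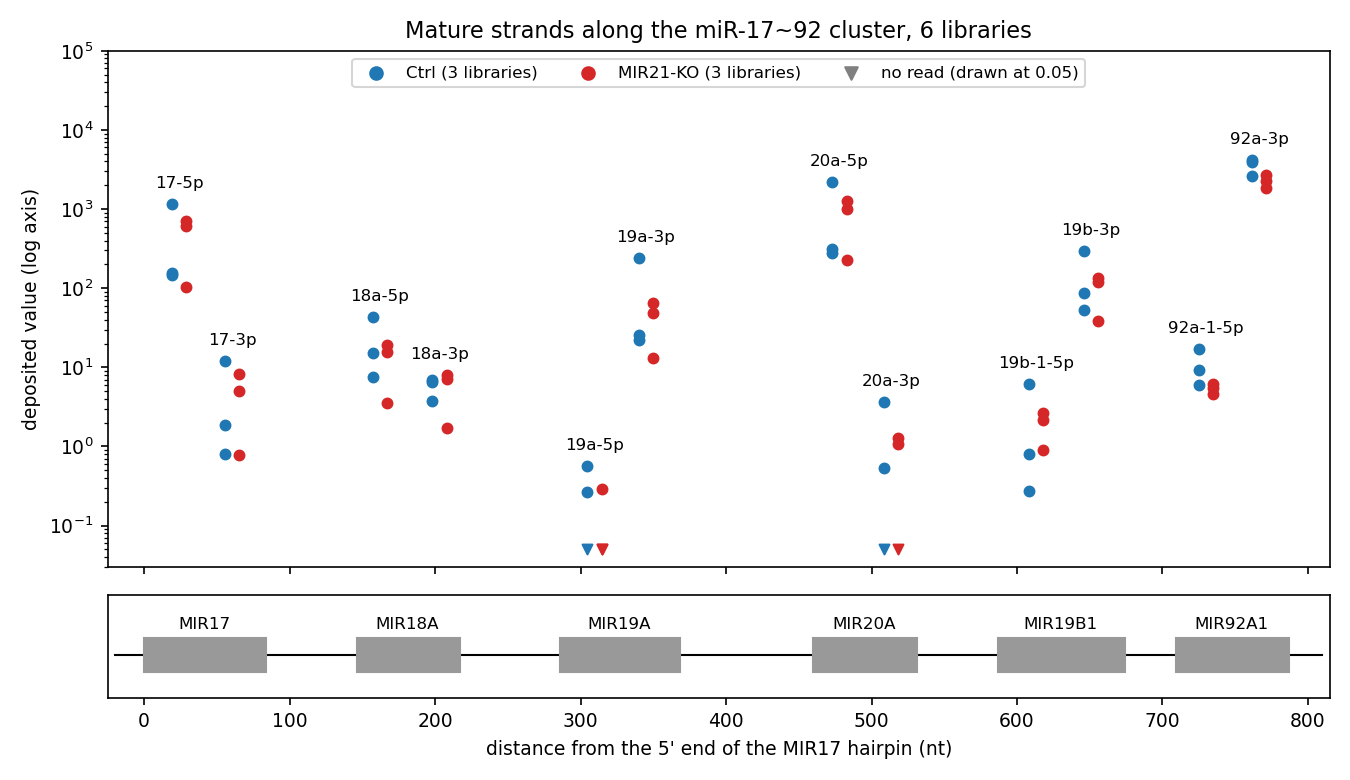
Deposited values (log axis) of the mature strands at the midpoint of each strand along the cluster, in nt from the 5′ end of the MIR17 hairpin, with 1 point per library and the 6 hairpins drawn to scale underneath. The guides miR-17-5p, miR-20a-5p and miR-92a-3p lie highest, and 2 strands without a read in some libraries are drawn at 0.05.

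To ask whether loss of *MIR21* altered the cluster, each member was compared between the 3 *MIR21*-KO and the 3 Ctrl libraries. No member passed the test. The intervals were wide, and over the 6 libraries the highest value exceeded the lowest 11.2-fold for miR-17-5p and 18.3-fold for miR-19a-3p. In bulk libraries, a lower level in every cell cannot be told apart from fewer cells that hold a miRNA.

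The AAAGUGC guides are best known for repressing cell cycle inhibitors. miR-17-5p had values of 155, 148 and 1146 in Ctrl replicates 1 to 3 and of 617, 716 and 102 in *MIR21*-KO replicates 1 to 3. The lowest and the highest *MIR21*-KO library lay on both sides of Ctrl replicates 1 and 2, and the groups overlapped. Means were 483 ± 574 in Ctrl against 478 ± 329 in *MIR21*-KO (SD, n = 3 each), and the log2 fold change of *MIR21*-KO over Ctrl was 0.26 (SE 1.04, 95% interval -2.15 to 2.67, limma adjusted p = 0.929).

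miR-20a-5p, the near copy of miR-17-5p, had values of 311, 280.0 and 2208 in Ctrl against 995, 1252 and 226 in *MIR21*-KO. Its 6 libraries fell in the same order as those of miR-17-5p, and the groups overlapped. The log2 fold change was 0.18 (SE 0.97, 95% interval -2.08 to 2.45, limma adjusted p = 0.938). The ratio of miR-20a-5p to miR-17-5p stayed between 1.61 and 2.21 in the 6 libraries, a 1.37-fold range.

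miR-18a-5p, the sole member with the AAGGUGC seed, had values of 7.48, 15.1 and 42.9 in Ctrl against 15.8, 19.3 and 3.51 in *MIR21*-KO. Ctrl replicate 3 was again the highest and *MIR21*-KO replicate 3 the lowest, and the groups overlapped. The log2 fold change was -0.66 (SE 0.80, 95% interval -2.51 to 1.2, limma adjusted p = 0.779).

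The miR-19 guides are known for accounting for much of the oncogenic activity of the cluster in B-cell lymphoma models. miR-19a-3p had values of 22.4, 25.9 and 239.7 in Ctrl against 65.6, 48.8 and 13.1 in *MIR21*-KO. miR-19b-3p had values of 52.3, 88.1 and 297 in Ctrl against 135, 118 and 38.5 in *MIR21*-KO. Both were highest in Ctrl replicate 3 and lowest in *MIR21*-KO replicate 3, with overlapping groups. Their log2 fold changes were -0.57 (SE 1.01, 95% interval -2.93 to 1.80, limma adjusted p = 0.831) and -0.38 (SE 0.78, 95% interval -2.20 to 1.44, limma adjusted p = 0.832).

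miR-92a-3p, which has been linked to the control of BCL2L11 and of angiogenesis, varied least. Its values were 4165, 2618 and 3924 in Ctrl against 2251, 1854 and 2707 in *MIR21*-KO. A single *MIR21*-KO library, replicate 3, exceeded the lowest Ctrl library, and the highest library exceeded the lowest 2.25-fold. Means were 3569 ± 833 in Ctrl against 2271 ± 426 in *MIR21*-KO (SD, n = 3 each), a log2 fold change of -0.64 (SE 0.38, 95% interval -1.53 to 0.25, limma adjusted p = 0.598).

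**Figure D2:**
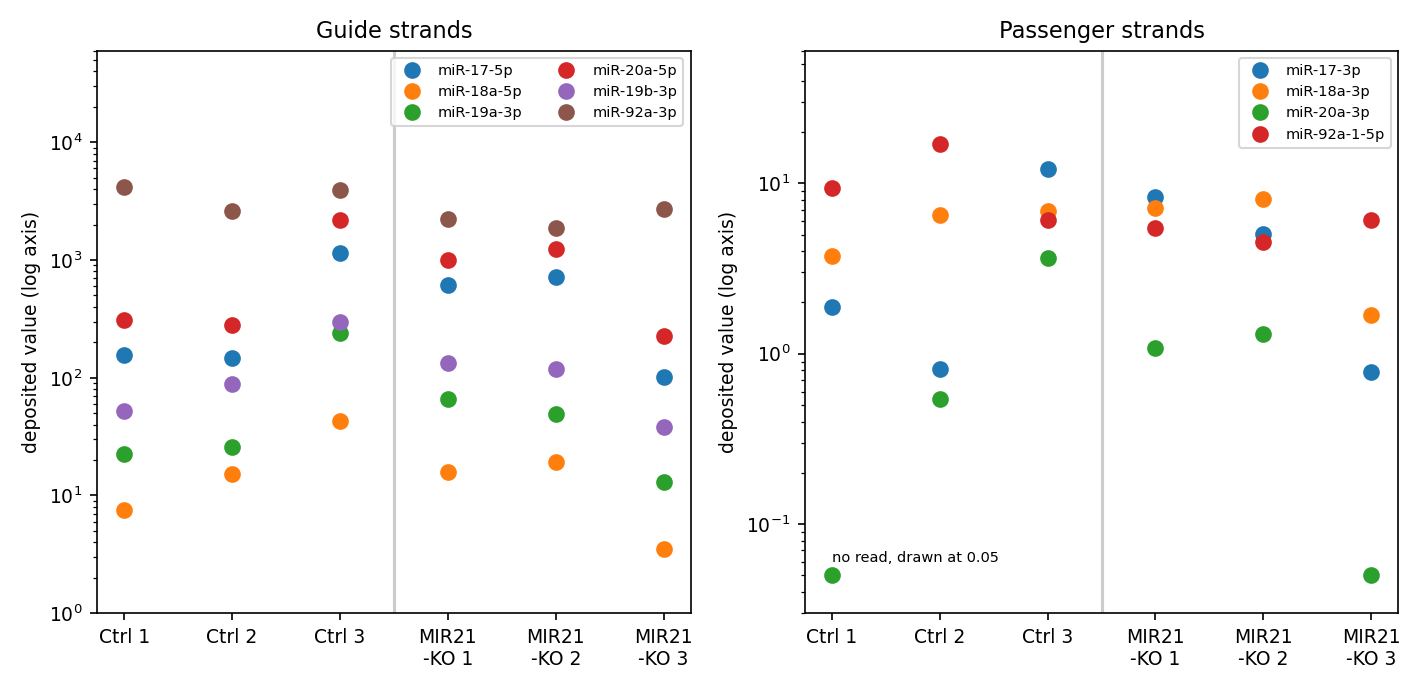
Deposited values (log axis) of the 6 guide strands (left) and the 4 measured passenger strands (right) in each of the 6 libraries, 1 point per library. miR-17-5p, miR-20a-5p, miR-19a-3p, miR-19b-3p and miR-18a-5p are higher in Ctrl 3, *MIR21*-KO 1 and *MIR21*-KO 2 than in the other libraries of the same condition, whereas miR-92a-3p lies between 1854 and 4165 throughout.

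The passenger strands were sparse. miR-92a-1-5p, which unlike its guide comes from chromosome 13 alone, had values of 9.35, 17.03 and 6.07 in Ctrl against 5.47, 4.54 and 6.11 in *MIR21*-KO. Only *MIR21*-KO replicate 3 exceeded the lowest Ctrl library. Its log2 fold change was -0.79 (SE 0.46, 95% interval -1.86 to 0.28, limma adjusted p = 0.592). miR-17-3p had values of 1.87, 0.811 and 12.1 in Ctrl against 8.28, 5.05 and 0.780 in *MIR21*-KO, following miR-17-5p (log2 fold change 0.18, SE 0.87, limma adjusted p = 0.938). miR-18a-3p ranged from 3.74 to 6.91 in Ctrl and from 1.69 to 8.08 in *MIR21*-KO (-0.16, SE 0.56, limma adjusted p = 0.913). miR-20a-3p had 61 reads in all and none in Ctrl replicate 1 or *MIR21*-KO replicate 3 (-0.20, SE 0.62, limma adjusted p = 0.906).

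Thus 0 of 10 members passed an adjusted p of 0.05 in limma, and 0 had an unadjusted p under 0.05, against 5 of all 607 miRNAs tested, or 0.824%, at the adjusted threshold, all of them lower in *MIR21*-KO (0% were higher). At an unadjusted p under 0.05, limma had 6.75% of all miRNAs higher, 4.45% lower and 11.2% in either direction. On the recovered reads, edgeR also called 0 members, against 0% of all miRNAs called higher and 0.824% called lower. It had 0 members at an unadjusted p under 0.05 (5.27% of all miRNAs higher and 4.94% lower). DESeq2 called 0 of the 9 members for which it gave a p (none for miR-19a-3p), against 0.667% of all miRNAs higher and 3.17% lower, and had 2 members at an unadjusted p under 0.05, both lower (7.17% of all miRNAs were lower and 4.5% higher). In no member did the groups separate, against 9.56% of all miRNAs with every *MIR21*-KO value above every Ctrl value and 6.59% with every value below. The fold change was negative for 7 of 10 members with a median of -0.29, and for 38.2% of all miRNAs with a median of 0.24. These signs were not stable: those of miR-17-5p, miR-17-3p and miR-20a-5p turned negative with centring on the median miRNA and with either count model, and the 7 negative values turned positive when reads were scaled to all miRNAs, miR-21 included.

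The members were then compared between replicates of 1 condition, which involves no contrast of conditions. Ctrl replicate 3 held 7.57-fold more miR-17-5p than the mean of Ctrl replicates 1 and 2, 7.48-fold more miR-20a-5p, 9.91-fold more miR-19a-3p, 4.23-fold more miR-19b-3p and 3.79-fold more miR-18a-5p. The mean of *MIR21*-KO replicates 1 and 2 exceeded *MIR21*-KO replicate 3 by 6.52-fold for miR-17-5p, 4.97-fold for miR-20a-5p, 4.35-fold for miR-19a-3p, 3.29-fold for miR-19b-3p and 4.99-fold for miR-18a-5p. miR-92a-3p did not follow its neighbours, with 1.16-fold in Ctrl against 0.758-fold in *MIR21*-KO. The passenger of the MIR92A1 hairpin, miR-92a-1-5p, was lower in the libraries where the other members were high, with 0.460-fold and 0.820-fold.

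On the log2(value + 1) scale, the difference of Ctrl replicate 3 from the mean of the others was 2.91 for miR-17-5p, higher than in 97.7% of the 607 miRNAs, and 3.26 for miR-19a-3p, higher than in 98.8%. For miR-92a-3p it was 0.25, close to the median of 0.15 for all miRNAs (quartiles -0.81 and 1.21). The corresponding difference in *MIR21*-KO was 2.69 for miR-17-5p, higher than in 98.4%, and -0.41 for miR-92a-3p, against a median of 0.23 (quartiles -0.62 and 1.13).

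**Figure D3:**
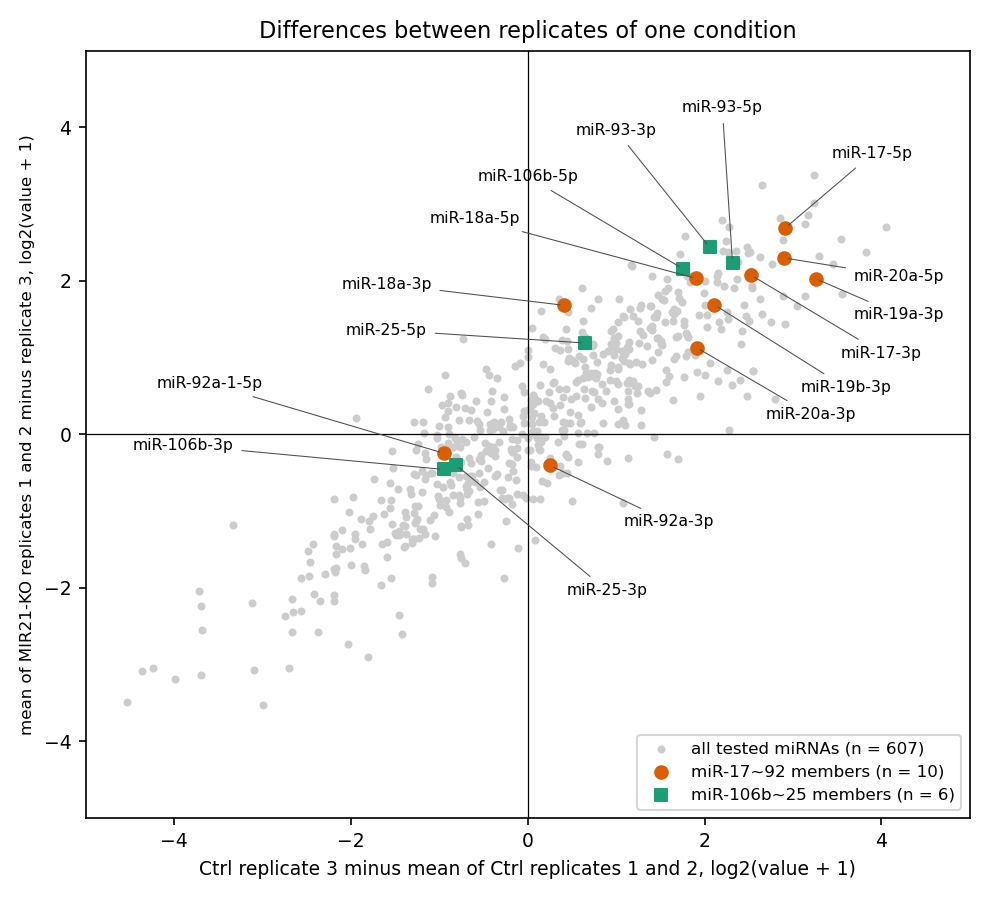
Difference of Ctrl replicate 3 from the mean of Ctrl replicates 1 and 2 (x axis) against that of the mean of *MIR21*-KO replicates 1 and 2 from replicate 3 (y axis), both on log2(value + 1), for 607 miRNAs (grey), the 10 cluster members (orange) and the 6 members of miR-106b~25 (green squares). miR-17-5p (2.91 and 2.69) and miR-20a-5p (2.90 and 2.3) lie far toward the upper right, whereas miR-92a-3p (0.25 and -0.41) lies near the centre.

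The make-up of the cluster therefore differed between libraries. miR-92a-3p made up 88.4, 82.4 and 49.9% of the guide reads in Ctrl against 55.2, 46.3 and 87.6% in *MIR21*-KO, so that it took the larger part in Ctrl replicates 1 and 2 and *MIR21*-KO replicate 3. miR-20a-5p made up 6.59, 8.82 and 28.1% in Ctrl against 24.4, 31.2 and 7.32% in *MIR21*-KO, and miR-17-5p 3.29 to 14.6% and 3.31 to 17.9%. Between conditions the share of miR-92a-3p differed by -10.6 points (73.6% ± 20.7 in Ctrl against 63.0% ± 21.7 in *MIR21*-KO, SD, n = 3 each, 2-sided exact permutation test p = 0.7). No share passed (p = 0.96 to 1 after Benjamini-Hochberg adjustment over the 6 guides, exact permutation tests), but 3 libraries against 3 cannot go below p = 0.1. The ratio of miR-92a-3p to miR-17-5p was 26.9, 17.7 and 3.42 in Ctrl against 3.65, 2.59 and 26.5 in *MIR21*-KO, a 10.4-fold range, although miR-92a-3p may include reads from the X chromosome.

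**Figure D4:**
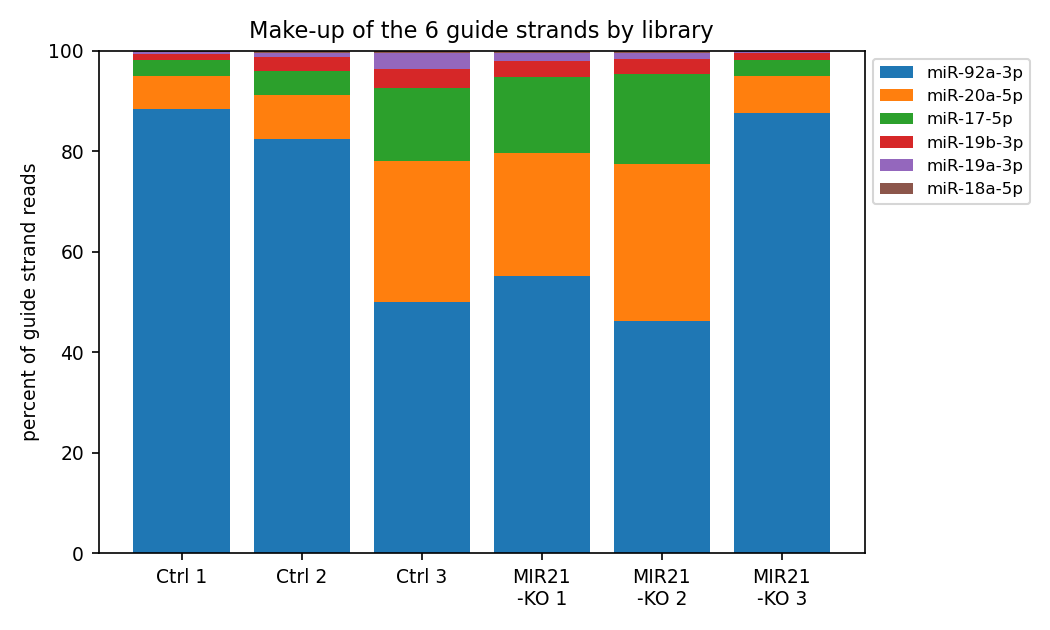
Percent of the summed reads of the 6 guide strands taken by each guide, with 1 stacked bar per library. miR-92a-3p takes 82.4 to 88.4% in Ctrl 1, Ctrl 2 and *MIR21*-KO 3 and 46.3 to 55.2% in the other libraries.

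Since a share is free of the scaling factor, the summed guides were also given as a percent of all miRNA reads other than miR-21. They made up 0.745% (95% Wilson interval 0.734 to 0.756), 0.604% (0.593 to 0.615) and 1.88% (1.86 to 1.89) in Ctrl, and 0.653% (0.648 to 0.659), 0.767% (0.761 to 0.774) and 0.426% (0.421 to 0.432) in *MIR21*-KO. These intervals cover counting error only, since reads were not identified by molecule. The means of 1.08% ± 0.698 and 0.616% ± 0.174 (SD, n = 3 each) did not pass (2-sided exact permutation test p = 0.5). Without miR-92a-3p, the other 5 guides summed to values of 548, 557 and 3934 in Ctrl against 1828, 2154 and 383 in *MIR21*-KO.

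The balance of the strands was compared within hairpins, which does not depend on the scaling of a library. MIR17 gave 74.2 to 157 reads of miR-17-5p per read of miR-17-3p, after 0.5 reads were added to each. MIR18A kept both strands, with 1.97, 2.31 and 6.15 reads of miR-18a-5p per read of miR-18a-3p in Ctrl against 2.18, 2.38 and 2.04 in *MIR21*-KO, so that Ctrl replicate 3 stood apart. MIR20A gave 415 to 3479, with the upper values resting on 0 reads of miR-20a-3p. miR-92a-3p outnumbered miR-92a-1-5p 152- to 639-fold, but reads from the X locus may count toward it. None of the 4 ratios passed between conditions (raw p = 0.5 to 1, 1 after Benjamini-Hochberg adjustment over the 4, 2-sided exact permutation tests).

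Unlike the guides, the passenger strands of the copies on chromosome 13 and the X chromosome are named apart. They do not assign the guide reads to a locus, since passengers are far rarer than guides. miR-19b-1-5p and miR-92a-1-5p from chromosome 13 had 122 and 327 reads. miR-19b-2-5p and miR-92a-2-5p from the X chromosome had 0 reads in every library. With 3 reads taken as the limit, that is 0.307 per 1000000 reads in the largest library and 0.538 in the smallest. These limits are before TMM scaling, unlike the values given beside them. miR-19b-1-5p had values of 0.801, 0.270 and 6.21 in Ctrl against 2.67, 2.16 and 0.910 in *MIR21*-KO, high in the same libraries as miR-17-5p (log2 fold change 0.14, SE 0.66, limma adjusted p = 0.938). The remaining strand of the cluster, miR-19a-5p, had 9 reads in 3 libraries and was too low to test. In the miR-106a cluster on the X chromosome, 6 of 10 strands had no read. miR-106a-5p had 393 reads and miR-20b-5p 108, and miR-17-5p exceeded miR-106a-5p 39.1- to 116-fold. These were the 2 strands of that cluster that could be tested, with log2 fold changes of 0.13 and 0.16 (limma adjusted p = 0.948 and 0.929).

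The miR-106b~25 cluster was expressed at levels like those of miR-17~92 and showed a similar division between its members. miR-93-5p had values of 394, 367 and 1898 in Ctrl against 1422, 1495 and 309 in *MIR21*-KO, and miR-106b-5p of 135, 308 and 689.9 in Ctrl against 579, 639 and 135 in *MIR21*-KO. Both were high where miR-17-5p, with the same seed, was high. miR-25-3p, with the seed of miR-92a-3p, had 5414, 3637 and 2518 in Ctrl against 3174, 3134 and 4148 in *MIR21*-KO and was lower in those libraries. The ratio of miR-25-3p to miR-93-5p ranged from 1.33 to 13.7. Of the 6 strands tested, 0 passed in limma (0.824% of all miRNAs did), with log2 fold changes of -0.46 to 0.42 and a median of 0.09.

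The seed did not mark the division. miR-32-5p carries the seed of miR-92a-3p but varied as miR-17-5p did, at 80.7, 90.8 and 534 in Ctrl against 229.6, 213 and 64.4 in *MIR21*-KO. miR-92b-3p, also with that seed, had values of 311 to 629 in Ctrl against 478 to 590.3 in *MIR21*-KO. The GC content of the guides was 34.8 to 47.8% for the 5 that varied together and 54.5% for miR-92a-3p. It was 31.8% in miR-32-5p, 42.9% in miR-106b-5p, 52.2% in miR-93-5p, 50% in miR-25-3p and 63.6% in miR-92b-3p and miR-106b-3p. In miR-93-3p it was 59.1%, and the difference of Ctrl replicate 3 from the mean of the others was 2.06. The corresponding difference in *MIR21*-KO was 2.44, both on the log2(value + 1) scale. For miR-106b-3p these differences were -0.95 and -0.46, and for miR-18a-3p (56.5% GC) 0.41 and 1.68. Among 543 tested miRNAs with a sequence, the median difference of Ctrl replicate 3 from the mean of the others was 0.63 both below 40% GC (n = 114) and from 40 to 50% (n = 166), -0.02 from 50 to 60% (n = 176) and -0.27 from 60% (n = 87), on the log2(value + 1) scale. In *MIR21*-KO the corresponding medians were 0.39, 0.55, 0.08 and 0.10. The part of base composition in the variation of the members was not tested.

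The summed markers of other cell types also moved with the library sets. Of 13 such miRNAs, 5 had a value of at least 1 in all 6 libraries. They were the erythroid miR-451a (1.69 to 41.6), liver miR-122-5p (7.90 to 141), muscle miR-1-3p (5.64 to 71.1), miR-143-3p and miR-145-5p. Another 5 were below 1 in every library, including miR-142-3p, miR-142-5p and miR-223-3p of blood. Also of blood, miR-150-5p reached 1.08 in 1 library. Differences of Ctrl replicate 3 from the mean of the others were -3.33 for miR-451a, -3.72 for miR-122-5p and -1.46 for miR-1-3p. In *MIR21*-KO the corresponding differences were -1.18, -2.04 and -2.36, both on the log2(value + 1) scale. Sums of the 13 were 736, 866 and 262 in Ctrl against 533, 446 and 1362 in *MIR21*-KO, or 0.0626 to 0.188% of the values other than miR-21. These sums were highest where miR-17-5p was low. Most of each sum was miR-143-3p, a mesenchymal miRNA, at 607, 648 and 237 in Ctrl against 476, 414 and 1226 in *MIR21*-KO. miR-145-5p, from the same primary transcript as miR-143-3p, ran the other way, at 2.67, 4.6 and 9.31 in Ctrl against 13.0, 12.0 and 3.64 in *MIR21*-KO. The part of these markers in the differences between libraries was not tested.

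Within the library sets, *MIR21*-KO replicate 3 can be set against Ctrl replicates 1 and 2, and *MIR21*-KO replicates 1 and 2 against Ctrl replicate 3. In both sets, 7 of 10 members had *MIR21*-KO values below every Ctrl value, among them 5 of 6 guides. The same held for 17.6% of all 607 miRNAs, and 30% were above in both. Members share a transcript and are not separate observations, so their count was not tested against that percentage. For miR-17-3p it rested on 0.780 in *MIR21*-KO replicate 3 (6 reads) against 0.811 in Ctrl replicate 2 (3 reads). The ratio of *MIR21*-KO to Ctrl was 0.674 and 0.581 for miR-17-5p, 0.766 and 0.509 for miR-20a-5p, 0.310 and 0.408 for miR-18a-5p, 0.543 and 0.238 for miR-19a-3p and 0.548 and 0.426 for miR-19b-3p, with the set of Ctrl replicates 1 and 2 first. For miR-92a-3p the ratios were 0.798 and 0.523, but 2707 in *MIR21*-KO replicate 3 exceeded 2618 in Ctrl replicate 2. miR-18a-3p and miR-20a-3p were not below in both sets.

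With a term for the library sets in the limma fit, 3 members were called lower in *MIR21*-KO, against 6.43% of all miRNAs called lower and 11.7% called higher in that fit. They were miR-19a-3p (log2 fold change -1.45, 95% interval -2.14 to -0.76, limma adjusted p = 0.00752), miR-18a-5p (-1.31, -2.01 to -0.62, limma adjusted p = 0.0134) and miR-19b-3p (-1.02, -1.63 to -0.40, limma adjusted p = 0.0270). miR-17-5p and miR-20a-5p had values of -0.67 and -0.68 and missed the threshold (limma adjusted p = 0.0646 and 0.0675), as did miR-92a-3p at -0.61 (limma adjusted p = 0.104). edgeR with the same term called the same 3 members, against 5.44% of all miRNAs called lower and 8.4% called higher. The edgeR fit rests on the same reads, sets and TMM factors as the limma fit. The set term was not fitted under another scaling. The sets were read from other miRNAs of the same libraries with earlier results known, and 1 set has a single *MIR21*-KO and the other a single Ctrl library, so these p-values are not independent evidence.

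**Figure D5:**
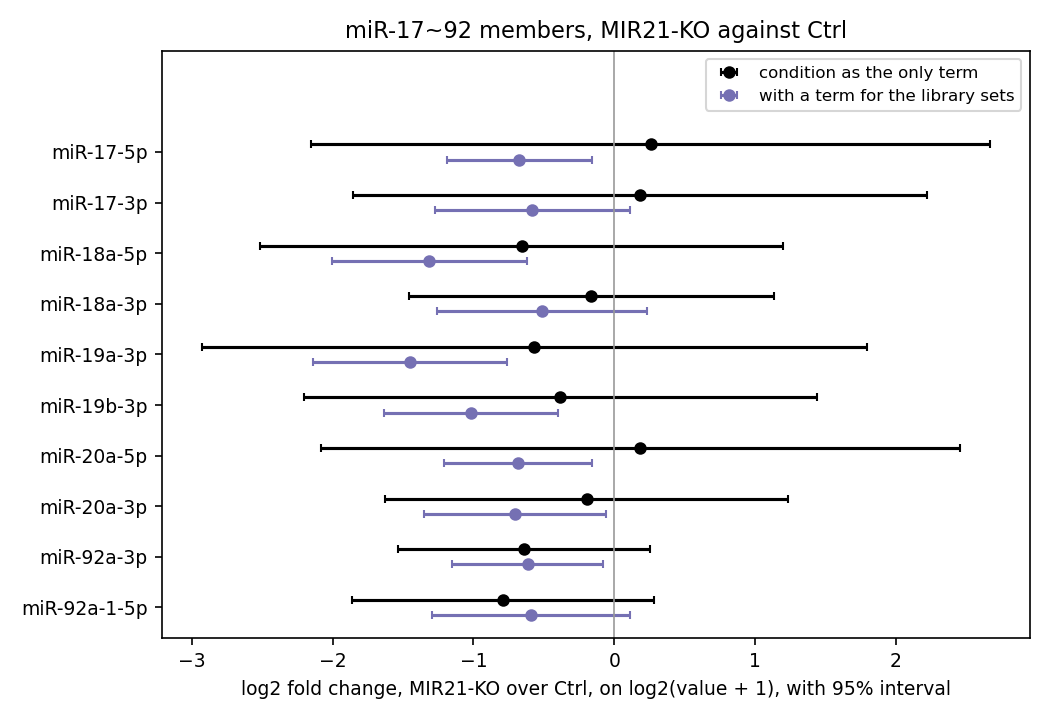
Log2 fold change of *MIR21*-KO over Ctrl on log2(value + 1), with 95% intervals, for the 10 members, from limma with condition as the only term (black) and with a term for the library sets (purple). Every black interval spans 0, and with the term the estimates run from -1.45 (miR-19a-3p) to -0.51 (miR-18a-3p).

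The miRNAs whose profile over the 6 libraries was most like that of the summed guides were miR-1197, miR-429, miR-148b-5p, miR-455-5p and miR-23b-5p. Their root mean square differences from it were 0.11, 0.19, 0.21, 0.24 and 0.26 on the log2 scale after centring. In all, 332 miRNAs averaged 10 or more over the 6 libraries, the guides included. The 5 nearest were picked from these after the cluster, its paralogs and its seed relatives had been set aside. Of the guide reads, miR-92a-3p made up 46.3 to 88.4%, so the sum mixes its profile with that of the other guides. Likeness to the sum is therefore not likeness to any 1 guide. Within the cluster, miR-17-5p and miR-20a-5p differed by 0.14 and miR-18a-5p and miR-19b-3p by 0.24, whereas the other 5 guides differed from miR-92a-3p by 1.03 to 1.45.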

How the data were processed

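Small RNA was sequenced from 3 Ctrl and 3 *MIR21*-KO libraries of A549 cells, grouped by the labels. The submitters' processing notes name cutadapt 1.14, Bowtie2 2.3.2, SAMtools 1.5, featureCounts 1.5.3, edgeR 3.18.1 and the hg38 build. The authors deposited a normalized signal for each mature miRNA (counts per 1000000 after TMM scaling), with replicates kept apart. Every value was a whole multiple (100% of values, tolerance 1e-06) of the value of a single read in that library, so reads were recovered. The log2 fold changes, p-values and FDRs that the authors deposited for their own comparison were not used. How reads that fit several loci were counted is not given in the sources used here.

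Rows of 1 mature name were summed (2813 rows gave 2588 miRNAs, and 12 rows the 10 members). The 607 miRNAs that reached a value of 1 in 3 or more of the 6 libraries were fitted with limma 3.58.1 (R 4.3.3, lmFit and eBayes with trend) on log2(value + 1), which understates changes of low miRNAs, with condition as the only term and Benjamini-Hochberg adjustment over all 607. Shares and ratios were compared by exact permutation tests. Alternatives included edgeR 4.0.16 and DESeq2 1.42.0 on the reads. The procedure was tested on simulated counts without library sets, so that test does not cover the division between the libraries here. Sequences were matched by name for 2281 miRNAs, 10 of 10 members included.

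The members and lists were chosen with earlier results of these data known. Named miRNAs are the members, miR-21-5p, the other strands of the transcript, paralogs and seed relatives (with values where the mean was at least 10), cell type markers, and the 5 miRNAs nearest to the summed guides. miR-106a-5p, miR-20b-5p, miR-19b-2-5p and miR-92a-2-5p fall below that mean and were named after their values were seen. The check of chi-square per degree of freedom between replicates gave 130 to 2560, so no pair agreed within counting noise. This does not tell separate cultures from separate preparations of a culture.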

Additional observations from a re-analysis of the deposited data

How the results depend on the processing

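Only the term for the library sets, added with the data known, changed how many members passed: 0 were called lower without it and 3 with it, in limma and in edgeR. No member was called under any other alternative. Depth limits miR-20a-3p and miR-17-3p most, and the spread between replicates limits all members.

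The library labels share replicate numbers, but deviations of libraries with the same number correlated at -0.79, -0.60 and -0.88. Libraries of equal number lie in opposite library sets each time. The check therefore cannot tell whether equal numbers mark libraries prepared together. With the replicate block, 0 members passed (limma adjusted p = 0.951 to 0.979) and 2 of all miRNAs were lower.

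Among all miRNAs tested, 0 were called higher, against 196 when scaled to the total of all miRNAs, 4 with DESeq2, 71 with the set term in limma and 51 with it in edgeR. The 5 called lower became 3 with a pseudocount of 10, 9 with median centring, 19 with DESeq2, 2 at an adjusted p under 0.01, 39 and 33 with the set term in limma and edgeR, and 2 to 5 with a library left out. DESeq2 gave no adjusted p for 7 miRNAs, miR-19a-3p among them.

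Log2 fold changes of members turned sign as follows. miR-17-5p gave -0.037 with median centring, -0.015 with edgeR, -0.27 with DESeq2, -0.67 with the set term in limma and -0.68 with it in edgeR. miR-17-3p gave -0.11, -0.10, -0.36, -0.58 and -0.84 in that order. miR-20a-5p gave -0.11, -0.18, -0.42, -0.68 and -0.68, and -0.071 when scaled to the total without miR-21. Scaled to the total of all miRNAs, which the loss of miR-21 raises for every other miRNA by construction (median of all miRNAs 1.34, against 0.24), the values were 0.61 for miR-18a-5p, 0.98 for miR-18a-3p, 0.77 for miR-19a-3p, 0.98 for miR-19b-3p, 0.32 for miR-20a-3p, 0.75 for miR-92a-3p and 0.43 for miR-92a-1-5p. The summed guide share differed by -0.46 points of the reads without miR-21 and by 0.28 points of all reads.

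With each library left out in turn, log2 fold changes ran from -0.24 to 1.23 for miR-17-5p, -0.40 to 1.03 for miR-17-3p, -1.21 to 0.020 for miR-18a-5p, -0.48 to 0.40 for miR-18a-3p, -1.16 to 0.52 for miR-19a-3p, -0.92 to 0.32 for miR-19b-3p, -0.34 to 1.15 for miR-20a-5p, -0.67 to 0.44 for miR-20a-3p, -0.85 to -0.50 for miR-92a-3p and -1.11 to -0.43 for miR-92a-1-5p. Without Ctrl replicate 3, 4 of 10 members were negative, without *MIR21*-KO replicate 3, 2 of 10, and without any other library all 10. The difference in summed share ran from -0.70 to -0.06 points, and those in guide composition from 1.70 to 8.97 for miR-17-5p, -0.18 to 0.040 for miR-18a-5p, -0.85 to 0.44 for miR-19a-3p, -0.78 to 0.57 for miR-19b-3p, 1.35 to 13.3 for miR-20a-5p and -22.9 to -2.20 for miR-92a-3p. Differences between conditions (*MIR21*-KO minus Ctrl) in the mean log2 strand ratio ran from -0.17 to 0.34 for MIR17 and -0.78 to 0.044 for MIR18A. They ran from 0.14 to 1.53 for MIR20A and -0.35 to 0.69 for MIR92A1.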
